A study of Mus musculus with 8 samples.

Results

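The regions described here carried both CHD4 and Snf2h but not a replicated signal of Brg1 in the 3134 line, a mouse mammary epithelial cell line grown without treatment. Chromatin immunoprecipitation sequencing had been done with antibodies to CHD4, Snf2h and Brg1 (a monoclonal antibody), with 2 libraries for each, and each library came with a deposited list of hotspots, which are intervals where its tags were enriched. Hotspots of the 6 lists that shared at least 1 bp were merged, and a merged region was taken when it held a hotspot of both CHD4 lists and both Snf2h lists and of at most 1 of the 2 Brg1 lists. Of 532751 merged regions, 2111 met this rule (0.396%), and 263 of them (0.0494% of all) had no hotspot of either Brg1 list. Of all merged regions, 2.36% had replicated CHD4 and Snf2h and 9.6% had a hotspot in both Brg1 lists. The regions were thus chosen by the called hotspots, so the presence and height of hotspots in them are given as a description, without a test. The 2 DNA input libraries belong to the series and were not analysed here, and annotation and sequence of mm9, the build of all coordinates, were not used here.

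All 3 proteins are ATPases that move or eject nucleosomes. Brg1 drives SWI/SNF complexes, which slide and evict nucleosomes and are known for opening enhancers. CHD4 drives NuRD, a complex that couples remodeling to histone deacetylation and is often linked to repression, although it is also found at active regulatory regions. Snf2h drives ISWI complexes, which space nucleosomes evenly and are needed for ordered nucleosomes beside binding sites of CTCF, a factor that shapes chromosome loops. The 3134 line is widely used to study how steroid receptors reach their sites in chromatin.

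The 6 lists differed in length and in threshold, which sets what counts as absent. Brg1 replicate 1 held 115361 hotspots and Brg1 replicate 2 held 260036. The lowest Z score, the authors' score of enrichment, was 9.49 in Brg1 replicate 1 and 2 in Brg1 replicate 2. The CHD4 lists held 39797 and 293135 hotspots with lowest Z scores of 8.77 and 2, and the Snf2h lists held 32310 and 79969 with 8.60 and 8.50. These lists do not give the depth of a library. Nothing in the labels says that the 2 libraries of an antibody came from separate cultures, so differences between them may be technical.

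Most regions with replicated CHD4 and Snf2h also had Brg1 in both lists. Of 12553 such regions, 16.8% lacked replicated Brg1 (95% Wilson interval 16.2% to 17.5%) and 2.1% had no Brg1 hotspot at all. These intervals cover counting error only, and neighbouring regions are not independent. Where CHD4 was replicated without Snf2h, the share lacking replicated Brg1 was 26.1% of 17530 regions, and where Snf2h was replicated without CHD4 it was 61% of 5532. The shares with no Brg1 hotspot were 7.03% and 23.5%. Of the 3 classes the one with both proteins had the lowest share on each count, as a description of regions that the lists themselves define.

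The missing list was nearly always Brg1 replicate 1. Of the 2111 regions, 1762 (83.5%, 81.8% to 85%) had a hotspot of Brg1 replicate 2 only, 86 (4.07%) had one of Brg1 replicate 1 only, and 263 (12.5%) had none. Among the 1848 regions with 1 Brg1 list, that list was replicate 2 in 95.3%, against 78.0% of the 259340 merged regions with 1 Brg1 list. The count rested on the libraries required. Without Brg1 replicate 1, where a region had to lack a hotspot of the remaining Brg1 list, 348 regions were left, or 2.77% of those with CHD4 and Snf2h. The count was 3839 with CHD4 replicate 1 left out, and 4131 when Snf2h replicate 1 was left out. With Brg1 replicate 2 left out, 2062 regions lacked a hotspot of Brg1 replicate 1, the only Brg1 list then used. The regions with no Brg1 hotspot numbered 679 and 456 when CHD4 replicate 1 or 2 was left out, and 638 when Snf2h replicate 1 was. When every list was held to a Z score of at least 9.49, the whole set fell to 945 regions while those with no Brg1 hotspot numbered 258. The latter count was not stable under other settings: it was 885 with every list cut to 32310 hotspots and 72 with the taller 50% of every list.

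The regions were narrow, and in most of them each list with a hotspot had only 1. Their median width was 729 bp (quartiles 632 and 981 bp), against 1500 bp (1057 and 2060 bp) for the 10442 regions with hotspots in all 6 lists. In 86.4% of them, every list that had a hotspot had exactly 1. The tallest CHD4 and Snf2h hotspots of a region shared bases across all 4 lists in 93.3% of the regions, with a median of 347 bp in common, against 82.3% and 426 bp for regions of all 6 lists. A region joins all hotspots that touch, so regions with more lists are wider in part by construction. The shared bases also follow in part from the rule, which asks for hotspots of all 4 lists in 1 joined region.

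Midpoints of CHD4 and Snf2h hotspots lay a short distance apart, in regions that the rule joins by touching. The midpoint of the tallest CHD4 replicate 1 hotspot lay a median of 45 bp from that of Snf2h replicate 1 and 44 bp from that of Snf2h replicate 2, close to the 42 bp between the Snf2h libraries. The midpoint of CHD4 replicate 2 lay farther off, 74 and 68.5 bp from the Snf2h libraries and 75.5 bp from CHD4 replicate 1. In regions of all 6 lists the CHD4 to Snf2h distances were 80.5 and 84.5 bp for CHD4 replicate 1 and 166.5 and 132.5 bp for CHD4 replicate 2. Those regions were also wider, with a median of 1500 bp against 729 bp. The part of width in these distances was not tested. In regions with Brg1 replicate 2 only, the midpoint of its hotspot lay a median of 61.5 to 69.5 bp from those of CHD4 and Snf2h. That hotspot covered part of the bases shared by CHD4 and Snf2h in 1592 of the 1642 such regions that had shared bases (97.0%). Its median width was 586 bp in regions with a median of 764.5 bp, joined by touching, which leaves little room off centre. The tallest CHD4 and Snf2h hotspots had median widths of 465 to 584 bp in regions with a median of 729 bp, joined in the same way. No placement of Brg1, and no particular closeness of CHD4 to Snf2h, is therefore read from these values.

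**Figure D1:**
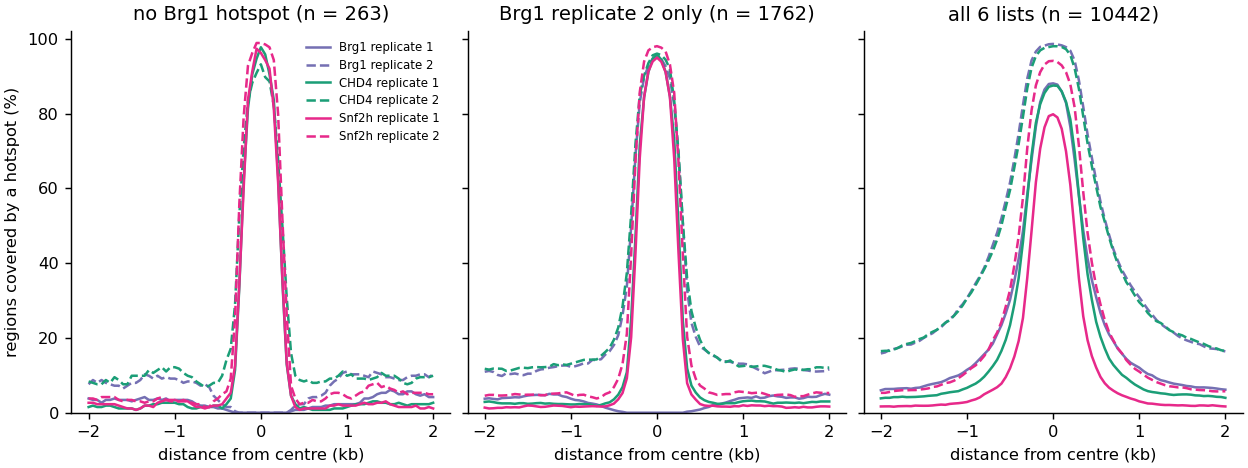
Percentage of regions covered by a hotspot of each list (vertical axis) against distance in kb from the centre, the mean midpoint of the tallest CHD4 and Snf2h hotspots, for 263 regions with no Brg1 hotspot, 1762 with Brg1 replicate 2 only and 10442 of all 6 lists. Solid lines are replicate 1 and dashed lines replicate 2, and at the centre of the middle panel Brg1 replicate 2 covers 95.2% of regions and Brg1 replicate 1 covers 0, as the rule requires.

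Coverage by hotspots fell off within a shorter distance than in regions of all 6 lists, as the plot of coverage around the centre shows. The hotspots themselves were narrower by median, to a degree that differed between lists. CHD4 widths were 481 against 625 bp in replicate 1 and 584 against 1092.5 bp in replicate 2. Snf2h widths were 465 against 488 bp in replicate 1, a small gap, and 556 against 726 bp in replicate 2. Coverage at a distance also follows these widths. At 500 bp on either side of the centre, a CHD4 replicate 2 hotspot covered 344 (at lower coordinates) and 343 (at higher ones) of the 1762 regions with Brg1 replicate 2 only, and a Snf2h replicate 2 hotspot covered 6.87% and 7.26% of them. At the same distance in regions of all 6 lists, the covered shares were 59.5% and 60.4% for CHD4 replicate 2 and 32.8% and 33.8% for Snf2h replicate 2. Regions with no Brg1 hotspot were narrower still, at 8.37% or less for every list at 500 bp. At 1000 bp, Brg1 replicate 2 covered 9.13% and 11% of them.

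Heights were given by the maximum tag density of the tallest hotspot in a region, in the authors' units. Densities were compared within a list only. In CHD4 replicate 1 the median was 13.5 (quartiles 10.4 and 17.7), against 20.1 (14.2 and 28.8) for regions of all 6 lists. In CHD4 replicate 2 it was 7.41 (4.94 and 10.4), against 13.6 (9.64 and 19). In Snf2h replicate 1 it was 18.7 (14.5 and 24.2), against 20.1 (15.2 and 27.0). In Snf2h replicate 2 it was 19.9 (13.2 and 29.3), against 27.9 (18 and 43.0). The quartile ranges overlapped in all 4 lists, and the medians were lower without replicated Brg1 in each of them.

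The shortfall was larger in CHD4 than in Snf2h. The median density for CHD4 was 67.2% (replicate 1) and 54.5% (replicate 2) of that of regions of all 6 lists, and for Snf2h it was 93.1% and 71.2%. As a mean over libraries, the ratio was higher by 0.21 for Snf2h than for CHD4, and single pairs of libraries ranged from 0.04 to 0.39. The difference was 0.11 with Snf2h replicate 1 left out, 0.33 with Snf2h replicate 2 left out and 0.14 with CHD4 replicate 2 left out. This mean was above 0 in each alternative for which it was computed, although with Brg1 replicate 1 left out 1 pair of libraries gave -0.02. The single Brg1 hotspots were lower again, with a median density 34.8% (replicate 1) and 37.0% (replicate 2) of that in regions of all 6 lists.

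**Figure D2:**
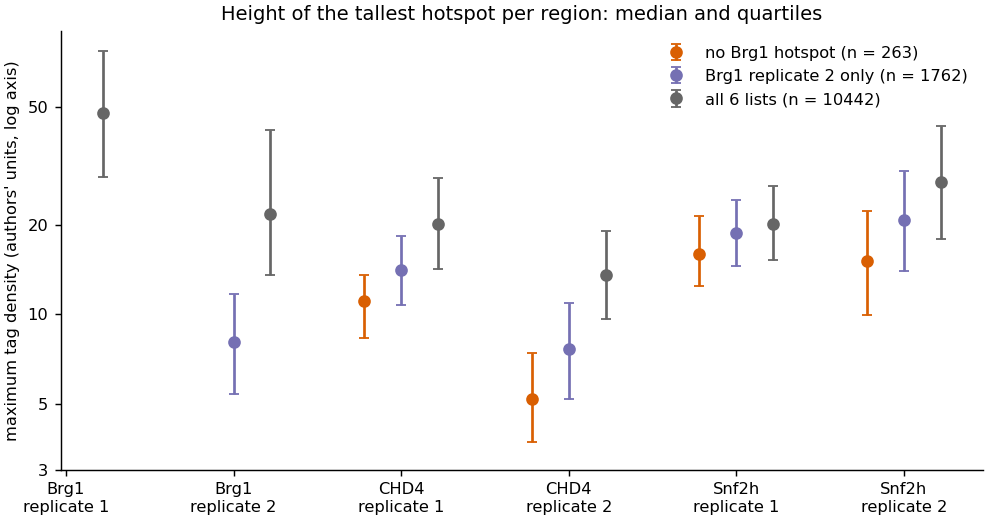
Maximum tag density of the tallest hotspot (vertical log axis, authors' units) in each of the 6 lists, for regions with no Brg1 hotspot, with Brg1 replicate 2 only and with all 6 lists. Points are medians and bars run between the quartiles, and in the CHD4 and Snf2h lists the order is no Brg1, then Brg1 replicate 2 only, then all 6 lists, with the smallest steps in Snf2h replicate 1.

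Regions with no Brg1 hotspot were the lowest. For CHD4 their median densities were 11.1 and 5.19, which is 55.2% and 38.2% of those in regions of all 6 lists. For Snf2h they were 15.9 and 15.1 (79.3% and 54.2%). Some were nonetheless tall. In Snf2h replicate 1, 71 of the 263 (27.0%) stood above the median of regions of all 6 lists, and in Snf2h replicate 2, 32 did (12.2%). In the CHD4 libraries 17 (6.46%) and 6 (2.28%) did.

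Over all 2111 regions, 337 (16.0%) exceeded the median of regions of all 6 lists in CHD4 replicate 1 and 249 (11.8%) in CHD4 replicate 2. In Snf2h replicate 1, 864 (40.9%) did, and in Snf2h replicate 2, 584 (27.7%). In 1001 regions (47.4%) no list did and in 100 regions (4.74%) all 4 did. Height above that median in both Snf2h libraries and neither CHD4 library was found at 208 regions (9.85%), and the opposite at 14 (0.663%). Among regions of all 6 lists the same 2 patterns were found at 6.93% and 8.88%.

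Ranking the 12553 regions with replicated CHD4 and Snf2h by height, in 10 equal groups, showed the same contrast. In the lowest group by mean CHD4 percentile within the lists, 48.2% lacked replicated Brg1 (45.5% to 51.0%), and in the highest group 1.99% did (1.35% to 2.92%). Ranked by mean Snf2h percentile, the share went from 28.8% (26.4% to 31.4%) to 5.89% (4.72% to 7.33%), and in the groups numbered 3 to 8 it lay between 15.5% and 19.2%. With both rankings cut into 3 equal groups, the share was 34.1% where CHD4 and Snf2h were both in the lowest. It was 21.6% where CHD4 was in the lowest and Snf2h in the highest, and 1.84% where CHD4 was in the highest and Snf2h in the lowest. The share fell with Snf2h only in the lowest CHD4 group. In the highest CHD4 group it rose with Snf2h, from 1.84% to 2.63% and 5.63%. In the middle CHD4 group it was 10.2%, 16.5% and 16.0% from the lowest to the highest Snf2h group. Width moved with the share as well, at 65.4% in the narrowest group of 10 and 0.239% in the widest. The part of width and of list threshold in these shares was not tested. With hotspots all given a width of 500 bp, the share over all regions was 19.3%.

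**Figure D3:**
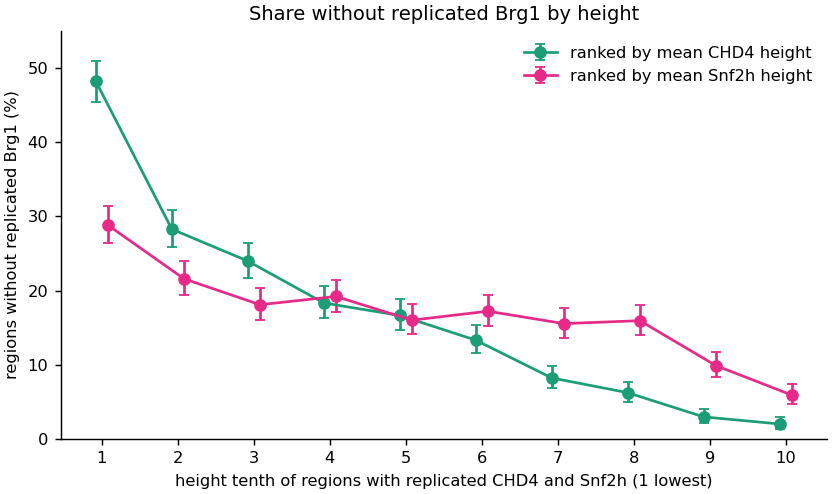
Percentage of regions without replicated Brg1 (vertical axis) in 10 equal groups of the 12553 regions with replicated CHD4 and Snf2h, ranked by mean CHD4 height or by mean Snf2h height. Bars are 95% Wilson intervals, and the CHD4 line runs from 48.2% to 1.99% while the Snf2h line runs from 28.8% to 5.89%.

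The Brg1 replicate 2 hotspots in these regions were in the upper part of their list. Their median percentile was 82.2 (quartiles 73.2 and 87.8), 93.5% of them were above the list median, and 1054 of 1762 (59.8%) had a Z score of at least 9.49, the lowest in Brg1 replicate 1. The 86 Brg1 replicate 1 hotspots were in the middle of theirs, at a median percentile of 54.8 (39.6 and 70.4).

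Set against other regions with a Brg1 replicate 2 hotspot of like height, a smaller share of those with replicated CHD4 and Snf2h than of those with neither lacked Brg1 replicate 1. Against regions with 1 of the 2 proteins replicated, the gap differed between height bands, with no steady trend. Among Brg1 replicate 2 percentiles of 80 to 85, 35.3% of regions with both replicated had no Brg1 replicate 1 hotspot (32.4% to 38.3%). The share was 42.0% with CHD4 alone replicated, 45.4% with Snf2h alone replicated and 64.8% with neither. Between 90 and 95 it was 8.05%, 12.6%, 12.6% and 26.3%, and above 95 it was 0.742%, 2.22%, 2.70% and 9.53%. Between 70 and 80 the share was 51.4% (47.9% to 54.9%) with both, 54.7% (51.8% to 57.5%) with CHD4 alone, 62.8% with Snf2h alone and 82.8% with neither. Between 60 and 70 it was 65.6%, 65.1%, 67.8% and 91.0%, and the intervals of the first 3 overlap. Between 50 and 60 it was 59.6% (51.6% to 67.1%) with both, 77.7% (72.4% to 82.2%) with CHD4 alone, 72.6% with Snf2h alone and 93.7% with neither. Below a percentile of 50 it was 68.3%, 76.5%, 76.2% and 95.4%. Widths were not matched in this comparison.

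**Figure D4:**
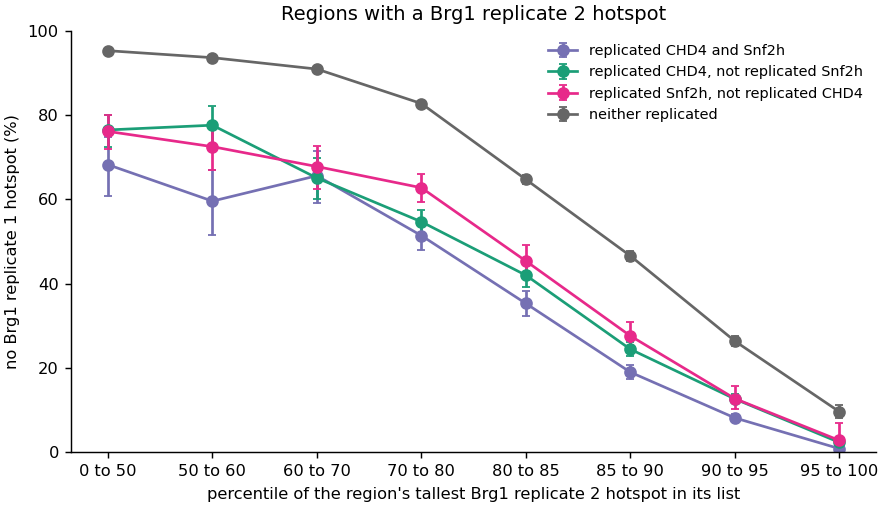
Percentage of regions with a Brg1 replicate 2 hotspot that had no Brg1 replicate 1 hotspot (vertical axis), by the percentile of the Brg1 replicate 2 hotspot in its list, for regions with CHD4 and Snf2h both, either or neither replicated. Bars are 95% Wilson intervals, and at percentiles of 80 to 85 the 4 groups lie at 35.3%, 42.0%, 45.4% and 64.8%.

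A check on libraries that the choice did not use was made by choosing regions on one replicate number and looking in the other. With the replicate 1 lists alone, 3235 regions had CHD4 and Snf2h and no Brg1 hotspot. Brg1 replicate 2 had a hotspot in 80.2% of them (78.8% to 81.6%), against 98.6% of the 11014 regions chosen in the same way with a Brg1 hotspot. Where it had one, the median percentile was 82.2 against 94.5. The other antibodies moved alike in these regions: CHD4 replicate 2 had a hotspot in 80.7% against 97.7%, at a median percentile of 88.3 against 96.1, and Snf2h replicate 2 in 85.1% against 94.1%. Recovery in replicate 2 was thus lower for all 3 antibodies. With the replicate 2 lists alone, 5297 regions were chosen, and Brg1 replicate 1 had a hotspot in 12.5% (11.7% to 13.5%), against 75.5% of 35752. CHD4 replicate 1 and Snf2h replicate 1 were themselves found in only 15.2% and 16.0% of those 5297, against 64.1% and 42.6%. The regions chosen without Brg1 were narrower, with medians of 533 against 828 bp and 552 against 1092 bp. An absence called in Brg1 replicate 1 was thus mostly not repeated in replicate 2, at a height below that of regions with Brg1 in both.

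Brg1 hotspots outside these regions lay a few kb away. From the 1762 regions with Brg1 replicate 2 only, the nearest Brg1 replicate 1 hotspot lay a median of 4622.5 bp away (quartiles 1639 and 11167 bp), and 17.3% had one within 1 kb. For all 202215 merged regions with Brg1 replicate 2 only, the median was 6753 bp and the share 12.6%. Where CHD4 was replicated without Snf2h, regions with Brg1 replicate 2 only lay nearer than here, at 3719 bp and 22.2%, and where Snf2h was replicated without CHD4 they lay at 5868 bp and 13.2%. From the 263 regions with no Brg1 hotspot, the nearest of Brg1 replicate 2 lay a median of 2607 bp away, and 84 of them (31.9%) had one within 1 kb. Over all 222250 merged regions with no Brg1 hotspot these values were 2901 bp and 24.8%, with replicated CHD4 alone 2130.5 bp and 32.1%, and with replicated Snf2h alone 3366 bp and 22.8%. The nearest region of all 6 lists was a median of 45.8 kb away from the whole set and 67.0 kb away from those with no Brg1 hotspot, while regions of all 6 lists lay 36.8 kb from the next of their kind.

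The tallest regions with no Brg1 hotspot had CHD4 and Snf2h of a height usual for regions with Brg1. They were ranked by the mean percentile over the 4 CHD4 and Snf2h lists. The first, at chr10:79387782-79388362, had a maximum density of 32.2 and 15.3 for CHD4 (replicates 1 and 2, as in all pairs that follow) and of 49.9 and 60.3 for Snf2h. It stood above percentile 92 of every one of the 4 lists, and the nearest Brg1 hotspots were 1058 bp (replicate 1) and 902 bp (replicate 2) away. The second, at chr11:68923597-68924767, had 22.9 and 19 for CHD4 and 46.4 and 71.2 for Snf2h. The third, at chr11:103193682-103194342, had 31.9 and 9.88 for CHD4 and 31.2 and 61.5 for Snf2h. Both of these lay over 1 kb from any Brg1 hotspot, the second 1474 bp and the third 4313 bp from one of replicate 2.

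The 2 that followed were cut off from Brg1 by short gaps. At chr17:56251157-56251835 the densities were 25.0 and 18.5 for CHD4 and 25.6 and 52.2 for Snf2h, and a Brg1 replicate 2 hotspot began 32 bp away with one of replicate 1 at 156 bp. At chr15:59590247-59590857 they were 32.9 and 26.2 for CHD4 and 29.1 and 24.6 for Snf2h, and a region of all 6 lists lay 28 bp away. For these a merging distance of 150 bp in place of touching would join neighbouring Brg1. Over the whole set that setting left 245 regions with no Brg1 hotspot of 2038.

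Among regions with 1 Brg1 list, the tallest reached the top of the CHD4 and Snf2h lists. At chr11:48668579-48670981 the densities were 58.9 and 44.0 for CHD4, 69.96 and 86.3 for Snf2h and 12.7 for Brg1 replicate 2. CHD4 and Snf2h stood above percentile 99 in all 4 lists and Brg1 replicate 2 at 88.8. At chr4:88286462-88287717 they were 52.7 and 39.5 for CHD4, 73.4 and 115 for Snf2h and 26.4 for Brg1 replicate 2. That region was remote, with no Brg1 replicate 1 hotspot within 54699 bp and no region of all 6 lists within 54.5 kb.

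The next in rank were alike. At chr5:130174917-130176376 the densities were 50.3 and 40.0 for CHD4, 54.7 and 82.7 for Snf2h and 14.5 for Brg1 replicate 2. At chr5:125888680-125890325 they were 46.1 and 26.7 for CHD4, 44.3 and 60.3 for Snf2h and 7.59 for Brg1 replicate 2. At chr19:47956827-47957479 they were 42.3 and 15.8 for CHD4, 61.6 and 84.2 for Snf2h and 21.7 for Brg1 replicate 2. All 5 of these tallest regions lacked Brg1 replicate 1 and not replicate 2. Such heights were rare in the set: 38 of the 2111 regions (1.80%) were in the tallest 10% of all 4 CHD4 and Snf2h lists, against 884 (8.47%) of the regions of all 6 lists.

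By percentile within the lists, the balance between CHD4 and Snf2h lay further to the Snf2h side than in regions of all 6 lists. The mean CHD4 percentile minus the mean Snf2h percentile had a median of -5.04 points (quartiles -15.1 and 4.47), and Snf2h ranked higher at 65.4% of the regions. With no Brg1 hotspot the median was -8.40 points and the share 70.3%. In regions of all 6 lists the median was 2.85 points and Snf2h ranked higher at 41.9%. The CHD4 and Snf2h lists differ in length and threshold, so the sign of the difference depends on the lists. Only the contrast between classes is read, and the leans of single regions below are by this measure. The largest lean to Snf2h was at chr5:49943258-49943728, with 10.1 and 2.72 for CHD4, 45.7 and 68.3 for Snf2h and 7.91 for Brg1 replicate 2. Its CHD4 percentiles were 26.4 and 27.1 and its Snf2h percentiles 98.2 and 98.7. Next came chr4:24081233-24082066, with no Brg1 hotspot, at 7.63 and 2.72 for CHD4 and 31.9 and 25.3 for Snf2h. The third, chr6:89629266-89630742, had 9.36 and 2.72 for CHD4, 30.5 and 32.4 for Snf2h and 7.75 for Brg1 replicate 2.

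In the other direction, chrX:7291226-7292292 had 21.8 and 10.1 for CHD4, 5.54 and 11.3 for Snf2h and 3.32 for Brg1 replicate 2. Its Snf2h percentiles, 7.81 and 53.8, differed widely between the libraries. At chr1:23175127-23176089 the densities were 25.0 and 17.0 for CHD4, 13.2 and 7.80 for Snf2h and 3.8 for Brg1 replicate 2, so both Snf2h libraries ranked below both CHD4 libraries there. At chr6:33990720-33991392 they were 15.9 and 5.44 for CHD4, 8.31 and 4.96 for Snf2h and 6.17 for Brg1 replicate 2.

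CHD4 and Snf2h heights followed each other across regions. Across the 2111 regions, which share libraries and are not replicates, Spearman's rho of density was 0.62 between the CHD4 libraries and 0.63 between the Snf2h libraries. In the 10442 regions of all 6 lists these were higher, at 0.72 and 0.65. Between a CHD4 and a Snf2h library rho ranged from 0.45 to 0.59, against 0.34 to 0.45 in regions of all 6 lists. Heights differed between these classes, and the part of that in rho was not tested. Brg1 replicate 2, over the 1762 regions that had it, followed CHD4 with rho of 0.44 and 0.46 and Snf2h with 0.29 and 0.28. In regions of all 6 lists the same values were 0.63 and 0.59 for CHD4 and 0.10 and -0.04 for Snf2h. The range of Brg1 heights was cut by the rule, so these coefficients are not compared further.

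On either side of the rule's threshold, the members with the tallest single Brg1 hotspot were set beside the regions of all 6 lists with the lowest Brg1. Just inside, chr6:13129439-13131606 had a Brg1 replicate 2 density of 74.96, percentile 99.5 of its list, and no Brg1 replicate 1 hotspot nearer than 8753 bp. Its CHD4 densities were 18 and 13.1 and its Snf2h densities 11.8 and 13.9. At chr1:52320512-52321700 and chr19:29909827-29910967, Brg1 replicate 2 reached 58.2 and 46.8, also without replicate 1. Just outside, chr6:47698300-47698694 had Brg1 densities of 5.21 and 1.90, percentiles 6.45 and 1.11, beside 15.6 and 11.6 for CHD4 and 18.7 and 33.1 for Snf2h. At chr9:104476631-104477268 Brg1 stood at 8.11 and 2.06 and at chr4:111559039-111559777 at 8.69 and 2.06.

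The widest regions without replicated Brg1 were on chromosomes 1 and 11. The first, chr1:172966637-172969848, spanned 3212 bp and joined 13 hotspots, with 22.2 and 13.6 for CHD4, 42.9 and 39.5 for Snf2h and 11.9 for Brg1 replicate 2. The second, chr11:68875606-68878517, spanned 2912 bp, with 30.5 and 21.0 for CHD4, 72.7 and 100.2 for Snf2h and 6.33 for Brg1 replicate 2. The second lies on the same stretch of chromosome 11 as the second tallest region with no Brg1 hotspot.

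Along the genome the regions followed those with CHD4 and Snf2h in general. Chromosome 11 had most per Mb, 1.37 or 1.67 times the genome mean, and its regions with replicated CHD4 and Snf2h were at 1.64 times theirs. Of those 949 regions, 17.2% lacked replicated Brg1 (14.9% to 19.7%). On chromosome 12 there were 0.448 per Mb and the share was 12.2% of 435 (9.44% to 15.6%), the lowest of the 20 chromosomes. On chromosome 7 the share was 20.4% of 751 (17.6% to 23.4%), the highest. Both were picked as the extremes of the 20 chromosomes, and the intervals cover counting error only. The X chromosome held 58 regions, 0.355 per Mb against 0.851 on the autosomes, a ratio of 0.417. For regions of all 6 lists that ratio was 0.349 and for all merged regions 0.643. Of the 299 X-linked regions with CHD4 and Snf2h, 19.4% lacked replicated Brg1 (15.3% to 24.3%), against 16.8% on the autosomes (16.1% to 17.4%), and these intervals overlap. Among the taller 50% of every list the ratio for X was 0.0777, with an interval of 0.0331 to 0.182. Under that cut no ratio was computed for regions of all 6 lists or for all merged regions. Whether the lower value is particular to the regions without replicated Brg1 was therefore not tested.

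Most of the regions were scattered, and one place held many. The median distance to the nearest other region of the set was 261 kb. Of 2060 bins of 1 Mb with a region of replicated CHD4 and Snf2h, 687 held 1 region without replicated Brg1, 341 held 2 and 38 held 5 or more. In the 429 bins with 10 or more regions of replicated CHD4 and Snf2h, the median share without replicated Brg1 was 15.4% (quartiles 8.33% and 20%). Only 2 of these 429 bins were above 50%, and they are neighbours on chromosome 13. From 23 to 24 Mb, 17 of 24 regions (70.8%) lacked replicated Brg1, and from 22 to 23 Mb, 7 of 13 (53.8%) did. Mouse chromosome 13 carries the largest cluster of replication-dependent histone genes, and whether these bins lie in it was not analysed here.

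The windows placed to hold most regions gave the same place. The fullest 1 Mb window, chr13:23390475-24390474, held 17 of them among 23 with CHD4 and Snf2h (73.9%), and 3 had no Brg1 hotspot. Their median percentiles were 73.2 and 94.9 in the CHD4 lists and 91.3 and 91.6 in the Snf2h lists, above the medians of the whole set in all 4 lists (47.2, 87.7, 70.3 and 76.2). Brg1 replicate 2 stood at a median percentile of 76.0. The 6 regions of all 6 lists in that window stood at 87.7 and 96.8 for CHD4, 98.5 and 98.4 for Snf2h and 67.2 and 86.1 for Brg1. For comparison, Brg1 in regions of all 6 lists over the genome had medians of 88.1 and 94.3.

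The longest run of neighbouring regions with CHD4 and Snf2h that all lacked replicated Brg1 lay in the fullest window, among the same regions. It held 10 regions over 308 kb at chr13:23542098-23849870. Elsewhere no run exceeded 5 regions, and 1389 of the 2111 regions stood singly. The second fullest window, chr13:21325440-22325439, held 12 of 30 and the third, chr5:115069974-116069973, held 10 of 22, as 1 of 7 windows with that number. The share in the bin from 23 to 24 Mb lay between 64.3% and 95% under every alternative computed but that without Brg1 replicate 1. There it was 12.5%, against 2.77% over the genome. The bins were compared after the values had been seen.

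**Figure D5:**
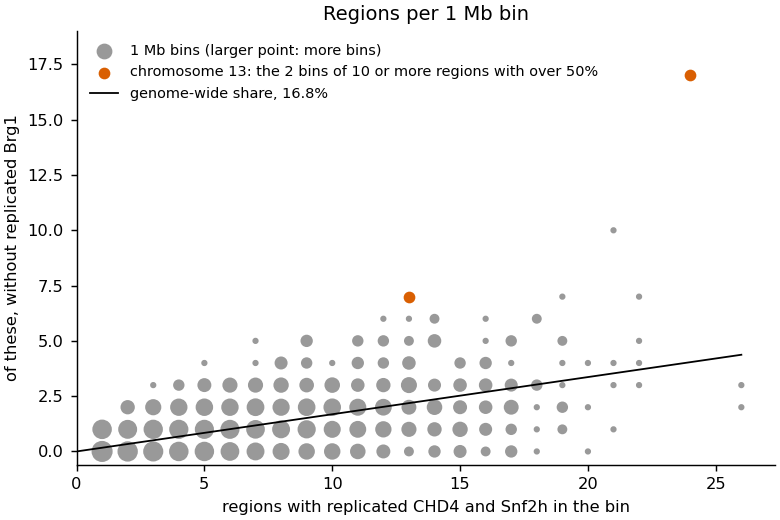
Number of regions without replicated Brg1 in each 1 Mb bin (vertical axis) against the number of regions with replicated CHD4 and Snf2h in it (horizontal axis), with larger points for more bins and a line at the genome-wide share of 16.8%. The 2 marked bins of chromosome 13, with 17 of 24 and 7 of 13, stand above the line.

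Compared with the other classes of a replicated pair, the set was the narrowest, and in number it was near the smaller of them. Regions with Brg1 and CHD4 but no replicated Snf2h numbered 12957, with a median width of 1166 bp, and those with Brg1 and Snf2h but no replicated CHD4 numbered 2160, at 1021 bp. Median Snf2h densities were 18.7 and 19.9 in the set without replicated Brg1 and 17.3 and 22 in that without replicated CHD4, so neither set was higher in both Snf2h libraries. Median CHD4 densities were 13.5 and 7.41 in the set without replicated Brg1 and 15.6 and 10.6 in that without replicated Snf2h, lower in both CHD4 libraries. The protein that was not replicated had a hotspot in 1 of its lists at 1848 of 2111 regions here. The other classes shared this trait, with CHD4 replicate 1 at 172 and CHD4 replicate 2 at 1819 of the 2160 regions, and Snf2h replicate 1 at 570 and Snf2h replicate 2 at 9135 of the 12957. All of these contrasts rest on the lists that define the classes.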

How the data were processed

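Per the submitters' processing notes, CASAVA 1.6 was used, with no role given, and mm9 is the build. The authors' lists hold the hotspots of 1 library each. Caller and thresholds were not given in the sources used here, nor was how the immunoprecipitation was done, since the labels' extraction text describes DNase I digestion. Per the file headers, each hotspot has a maximum and an average density (a signal, of unstated scaling) and a Z score (a score of enrichment). These are the authors' deposited values and were used to rank, filter and describe hotspots within a list.

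Intervals were read as closed, and positions are printed as in the files. Hotspots were merged by single linkage with Python 3.11.15, numpy 2.4.6, pandas 2.3.3 and scipy 1.17.1, and plots drawn with matplotlib 3.10.9. A percentile is a hotspot's rank by maximum density in its list. Chromosome lengths are the spans of the hotspots. The merging was tested on simulated data.

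Groups and replicate numbers came from sample titles. Regions named are the 5 tallest with no and with 1 Brg1 list, the 3 most CHD4-leaning and Snf2h-leaning, the 2 widest, the 3 fullest 1 Mb windows and 3 on each side of the threshold. The regions, rules and alternatives were chosen with earlier results of these data known. No test was run, because the lists chose the regions and a group has 2 libraries. Gene position, gene lists and motifs had been planned and were not run, since they need the mm9 genome.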

Additional observations from a re-analysis of the deposited data

How the results depend on the processing

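No paired analysis was possible because the results come from no test, and no label ties replicate numbers to a batch. With the taller 50% of every list, there were 955 regions, 72 with no Brg1 hotspot, a share of 12.4%, a median width of 786 bp, median percentiles of 68.9 and 92.8 (CHD4) and 82.3 and 87.0 (Snf2h), and an X to autosome ratio of 0.0777. With lists of 32310 hotspots, 885 regions had no Brg1 hotspot, and the other values were 25.9%, 997 bp, 0.297 for X and 95% for the chromosome 13 bin. At a common Z score of 9.49, there were 945 regions, 11.2%, 801 bp and percentiles of 60.9, 93.7, 79.0 and 83.2. Hotspots of 500 bp gave 19.3%, and merging across 150 bp gave 16.1% and 770 bp. Lists of replicate 1 alone gave 3235 regions (22.7%) and those of replicate 2 alone 5297 (12.9%), all with no Brg1 hotspot. Height by average density gave percentiles of 57.6, 88.0, 75.9 and 82.6, and by Z score 51.5, 71.0 and 80.3 for CHD4 replicate 1 and the Snf2h lists. Leaving out 1 library at a time gave 348 to 4131 regions, 328 to 2062 with no Brg1 hotspot, shares of 2.77% to 23.9%, widths of 635 to 724 bp, X ratios of 0.427 to 0.527, and percentiles of 32.5 to 47.2, 76.8 to 87.7, 62.0 to 70.3 and 66.2 to 76.5. With a Brg1 library left out, as for the 2062, no Brg1 hotspot means none in the other Brg1 list only. For the share in the chromosome 13 bin and the Snf2h minus CHD4 ratio, both chosen after seeing the data, leaving out 1 library gave 12.5% to 76.0% and 0.11 to 0.33. An overlap of 50% moved no value beyond its interval. The cause of these moves was not tested beyond what the settings themselves remove. Depth is unknown, and its part in an absent Brg1 hotspot was not tested.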

Other observations

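The 86 regions with Brg1 replicate 1 only were near in CHD4 height to those with no Brg1 hotspot and stood between them and those with Brg1 replicate 2 only in Snf2h height. Their median CHD4 densities were 11.1 and 5.68, against 11.1 and 5.19 with no Brg1 hotspot and 14.04 and 7.66 with Brg1 replicate 2 only. Their median Snf2h densities were 17.3 and 18.2, against 15.9 and 15.1 with no Brg1 hotspot and 18.7 and 20.8 with Brg1 replicate 2 only. Their median width was 665 bp. The nearest Brg1 replicate 2 hotspot lay a median of 1978 bp away, and 30 of them (34.9%) had one within 1 kb. Across these 86 regions, Spearman's rho of Brg1 replicate 1 density was 0.66 with CHD4 replicate 1, 0.51 with CHD4 replicate 2, 0.40 with Snf2h replicate 1 and 0.50 with Snf2h replicate 2, as a description only.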
